A study of Homo sapiens with 36 samples.

Results

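UPN-1, a cell line of mantle cell lymphoma, was compared 24 h after addition of the KDM5 inhibitor GS716054 with the same line 24 h after addition of the vehicle DMSO. The comparison uses the 6 libraries that the labels give as UPN-1 at 24 h, 3 titled GS716054 and 3 titled DMSO, of the 36 libraries in the series. The series exposed 3 lines (UPN-1, JEKO and MINO) to either agent and sequenced RNA at 24 or 72 h, which makes 12 groups of 3 libraries numbered as biological replicates 1 to 3. All groups shared 1 serum-supplemented culture medium, no further allele or agent is named, and the dose of GS716054 is not given in the sources used here. Each group is thus 1 established line in culture under 1 compound, with no second inhibitor and no inactive compound. How the replicate cultures were set up is not given either, so the p-values measure the spread between these libraries, which may be partly technical.

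The KDM5 enzymes (KDM5A, KDM5B, KDM5C and the Y-linked KDM5D) remove methyl groups from lysine 4 of histone H3, a mark of active promoters, and often work with corepressor complexes, so an inhibitor leaves their transcripts in place and blocks the enzyme. Mantle cell lymphoma is a B-cell cancer in which a translocation places the cyclin D1 gene CCND1 under an immunoglobulin enhancer, and most cases also express the transcription factor SOX11. The measurements here are of RNA and not of the histone mark.

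The 6 libraries held between 9720919 and 14125495 reads assigned to genes, and 19443 to 20083 genes had a read. A gene with no read in a library could reach 0.215 to 0.316 CPM there by counting error alone, taking 3 reads as the limit. CPM give the counts of a gene relative to the gene reads of its library, scaled by the trimmed mean of M values (TMM), which compares a gene between libraries but not 1 gene with another. The lymphoma's markers were present: CCND1 stood at 2434 ± 34.8 CPM (mean ± SD, n = 3) in DMSO, PAX5 at 303 ± 41.7, CD79B at 788 ± 67.4 and MS4A1, which encodes CD20, at 498 ± 14.6, while CD5 was low at 2.17 ± 0.528. Myeloid markers summed to 0.737 to 1.29 CPM in DMSO and 0.815 to 1.32 with GS716054, with 7 of 12 genes at 0 in all 6 libraries (S100A8, S100A9, MPO, FCGR3A, CD163, FCN1 and VCAN). T and NK cell markers summed to 56.6 to 61.5 CPM in DMSO and 54.6 to 69.97 with GS716054, almost all of it TRAC, and CD2, GNLY and KLRD1 were at 0. In bulk RNA of this kind, fewer cells of a type and less RNA per cell cannot be told apart. The share of gene reads from mitochondrial genes was 1.76%, 1.87% and 1.52% in DMSO replicates 1, 2 and 3 and 2.27%, 2.19% and 1.79% with GS716054, so it was higher with the inhibitor in each of the 3 same-number pairs, and its part in the results was not tested.

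The replicate block took 2 forms that gave different numbers of calls, and each result names the one it comes from. With 1 block over both times, fitted to the 12 UPN-1 libraries of 24 and 72 h (edgeR's quasi-likelihood test, Benjamini-Hochberg adjustment, called at an adjusted p under 0.05), 12 of 15248 genes were called, 0.0787% of those tested: 8 higher (0.0525%) and 4 lower (0.0262%). With the block set within each time, so that the libraries of the same number at 24 h are matched to each other only, 228 genes were called (1.5%), of which 140 were higher (0.918%) and 88 lower (0.577%). All 12 genes called with the shared block were among the 228. Without a block 4 genes were called (0.0262%), all among the 12, and with only the 6 libraries of 24 h and a block 975 were called (7.06%), which included the 228. The other 216 had the same sign with the shared block, with adjusted p-values there from 0.0530 to 0.806, and no log2 fold change differed by more than 0.050 between the forms. DMSO and GS716054 libraries of the same number deviated together weakly at 24 h. The correlation across genes of their deviations from the group means was 0.107 to 0.238 over 3 pairs. Over the 6 pairs of other numbers it was −0.176 to 0.0132. Deviations from a group mean cancel within the group, so these ranges are not independent of each other. Over the 12 same-number pairs of a 24 h and a 72 h library the correlation was 0.0115 to 0.245.

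**Figure D1:**
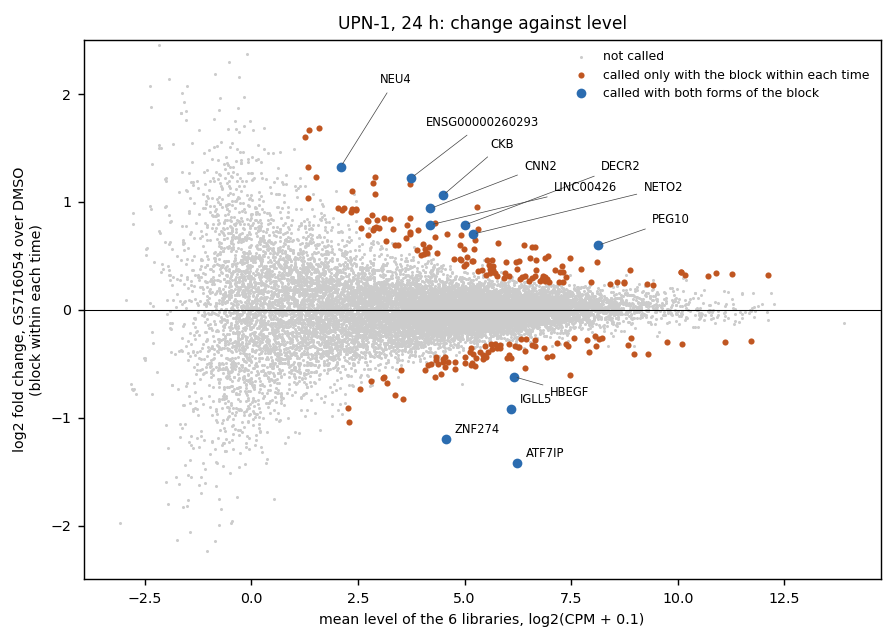
Change of each of 15248 genes in UPN-1 at 24 h (vertical axis, log2 fold change of GS716054 over DMSO with the block within each time) against its mean level over the 6 libraries (horizontal axis, log2 of CPM plus 0.1). Blue points are the 12 genes called with both forms of the block and orange points the 216 called only with the block within each time. ATF7IP and ZNF274 lie lowest among the called genes, and 10 uncalled genes lie outside the plotted range of ± 2.5.

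The largest decreases among the 12 genes were in a pair of genes of histone H3 lysine 9 methylation. ATF7IP encodes the partner that stabilises the H3K9 methyltransferase SETDB1, and ZNF274 encodes a zinc finger protein that brings SETDB1 to its DNA sites. ATF7IP (ENSG00000171681, GRCh38 chromosome 12, 14365676 to 14502931) read 117, 102 and 108 CPM in DMSO replicates 1, 2 and 3 and 37.8, 40.9 and 43.8 CPM with GS716054. The groups were far apart, with every treated library under every DMSO library, and the level was 2.67-fold lower with the inhibitor (block over both times: log2 fold change -1.43, SE 0.125, adjusted p = 3.14e-05). ZNF274 (ENSG00000171606, chromosome 19, 58183029 to 58213562) read 31.5, 32.95 and 33.00 CPM in DMSO and 15.5, 14.4 and 12.9 with GS716054 (log2 fold change -1.19, SE 0.122, adjusted p = 0.000155). Here too the groups did not overlap, and the 3 libraries within each group lay close together. Both genes passed the threshold under all 16 alternative fits, as did IGLL5 and CKB, which no other gene of the 12 did.

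No other gene of that system was called. Of 18 genes listed for H3K9 methylation and HUSH silencing, all tested, ATF7IP and ZNF274 were called lower and none higher with either form of the block, and the median log2 fold change was -0.02 against -0.001 over all genes. SETDB1 itself read 67.02, 64.2 and 62.2 CPM in DMSO and 58.2, 53.2 and 60.3 with GS716054 (block within each time: log2 fold change -0.17, SE 0.0733, adjusted p = 0.315), and 12.9% of its exons lie opposite the gene CERS2, whose reads cannot be separated where strand was not used in counting. TRIM28, the corepressor that links zinc finger proteins to SETDB1, stood at 1046 ± 72.5 CPM in DMSO and 1181 ± 124 with the inhibitor, and MPHOSPH8, a HUSH subunit, at 109 ± 2.32 and 103 ± 9.56. Neither passed the threshold (adjusted p = 0.188 and 0.713, block within each time).

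The 250 bases before the start of 5 of the 12 genes are shown because KDM5 enzymes act at promoters and the DNA-binding ARID domain of KDM5A is known to bind the letters CCGCCC. They are from RefSeq (GRCh38.p14), 5′ to 3′ on the strand of the gene, with capitals marking CCGCCC or its reverse complement GGGCGG. The first pair were lowered and the next 3 raised.
ATF7IP: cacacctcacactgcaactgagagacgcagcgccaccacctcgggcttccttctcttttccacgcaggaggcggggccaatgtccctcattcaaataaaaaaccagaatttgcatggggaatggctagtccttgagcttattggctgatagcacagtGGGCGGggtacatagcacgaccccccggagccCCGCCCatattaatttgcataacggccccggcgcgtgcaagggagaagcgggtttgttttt
ZNF274: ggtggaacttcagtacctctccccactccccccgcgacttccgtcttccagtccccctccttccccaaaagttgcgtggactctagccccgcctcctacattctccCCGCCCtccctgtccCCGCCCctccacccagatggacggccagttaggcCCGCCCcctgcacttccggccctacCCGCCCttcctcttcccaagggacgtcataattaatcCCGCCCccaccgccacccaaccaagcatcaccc
CKB: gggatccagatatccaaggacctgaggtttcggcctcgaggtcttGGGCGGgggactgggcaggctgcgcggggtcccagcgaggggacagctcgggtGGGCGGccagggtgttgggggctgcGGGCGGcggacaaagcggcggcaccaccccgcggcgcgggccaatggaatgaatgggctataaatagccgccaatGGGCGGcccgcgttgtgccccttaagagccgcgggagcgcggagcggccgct
NETO2: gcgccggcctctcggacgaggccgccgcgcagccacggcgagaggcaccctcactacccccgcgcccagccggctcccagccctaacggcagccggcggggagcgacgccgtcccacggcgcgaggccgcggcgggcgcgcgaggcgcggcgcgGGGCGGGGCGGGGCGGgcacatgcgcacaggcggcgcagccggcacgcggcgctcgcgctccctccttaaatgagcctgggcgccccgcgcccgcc
CNN2: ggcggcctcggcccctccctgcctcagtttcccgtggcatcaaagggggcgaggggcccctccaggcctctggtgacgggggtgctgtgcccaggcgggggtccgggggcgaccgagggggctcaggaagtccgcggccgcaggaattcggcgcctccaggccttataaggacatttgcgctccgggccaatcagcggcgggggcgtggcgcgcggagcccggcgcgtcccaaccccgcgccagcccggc

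These windows are chr12:14365432-14365681 (plus strand), chr19:58182811-58183060 (plus), chr14:103522831-103523080 (minus), chr16:47143946-47144195 (minus) and chr19:1026358-1026607 (plus). They end at RefSeq starts, which in the same order lie 6, 32, 3, 0 and 22 bases from the GENCODE starts. The ATF7IP and ZNF274 windows therefore run past the gene starts given above. The letters occur 2 times before ATF7IP, 5 times before ZNF274, 4 times before CKB, 3 times before NETO2, where the matches join into 1 run, and not at all in the CNN2 window. Of the 12 genes, 8 have a window and 5 of these hold the letters (62.5%). Of the 10454 tested genes with such a window, 67.1% hold them at least once, so a match is common and describes the letters only. Among the 228 genes, windows were found for 89 of the 140 higher and 65 of the 88 lower ones, of which 71.9% and 70.8% hold the letters. A comparison of these shares with that of all genes is void, because the table lacks windows for many genes of each set.

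The remaining lowered genes of the 12 were IGLL5, an immunoglobulin lambda-like gene that starts within the lambda light chain locus, and HBEGF, a ligand of the epidermal growth factor receptor. IGLL5 read 93.9, 88.1 and 84.4 CPM in DMSO and 49.2, 50.97 and 41.6 CPM with GS716054, with no overlap (log2 fold change -0.92, SE 0.0978, adjusted p = 0.000183, block over both times). On the same strand, 43.5% of its exons coincide with the constant gene IGLC1, which had no reads in the 6 libraries, so IGLL5 and IGLC1 transcripts cannot be told apart by these counts. HBEGF read 105, 81.5 and 69.7 CPM in DMSO and 70.8, 55.1 and 42.3 with GS716054. Its groups overlapped, because replicate 1 was highest and replicate 3 lowest in both, yet the treated library was lower in each pair (log2 fold change -0.62, SE 0.09304, adjusted p = 0.00967).

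Among the 8 raised genes, CKB encodes the brain form of creatine kinase, which buffers ATP, and CNN2 the actin-binding protein calponin 2. CKB read 14.2, 13.9 and 14.7 CPM in DMSO and 28.4, 37.1 and 25.5 with GS716054 (log2 fold change 1.07, SE 0.137, adjusted p = 0.00178), so its DMSO libraries were tight and its treated libraries spread, with replicate 2 highest. CNN2 read 13.9, 15.4 and 8.61 CPM in DMSO and 26.7, 25.8 and 19.1 with GS716054 (log2 fold change 0.94, SE 0.128, adjusted p = 0.00328), and replicate 3 was lowest in both groups. The groups did not overlap for either gene.

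NEU4, a sialidase, had the largest increase of the 12 but the lowest level. It read 3.05, 2.11 and 1.94 CPM in DMSO and 6.03, 6.98 and 4.89 with GS716054 (log2 fold change 1.32, SE 0.234, adjusted p = 0.0399), and 11.7% of its exons lie opposite another gene. The long non-coding RNA ENSG00000260293 read 6.301, 7.16 and 10.5 CPM in DMSO and 17.5, 18.8 and 19.8 with GS716054 (log2 fold change 1.20, SE 0.204, adjusted p = 0.0284). LINC00426, another long non-coding RNA, read 15.2, 14.3 and 10.6 CPM and 22.6, 24.1 and 21.7 (log2 fold change 0.79, SE 0.134, adjusted p = 0.0284). For all of these the treated libraries lay above the DMSO libraries.

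DECR2, a peroxisomal enzyme of unsaturated fatty acid oxidation, read 20.2, 26.7 and 23.2 CPM in DMSO and 38.2, 46.9 and 36.4 with GS716054 (log2 fold change 0.78, SE 0.1402, adjusted p = 0.0402), and NME4 shares 14.3% of its exons on the same strand. NETO2, an auxiliary subunit of kainate glutamate receptors, read 27.7, 24.6 and 30.9 CPM in DMSO and 44.9, 42.7 and 47.8 with GS716054 (log2 fold change 0.71, SE 0.113, adjusted p = 0.0188). PEG10, an imprinted gene derived from a retrotransposon, was the most highly counted of the raised genes, at 214, 208 and 241 CPM in DMSO and 301, 313 and 393 with GS716054 (log2 fold change 0.59, SE 0.102, adjusted p = 0.0284). All 8 raised genes and 3 of the 4 lowered ones had groups that did not overlap, which held for 14.9% of all genes tested.

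**Figure D2:**
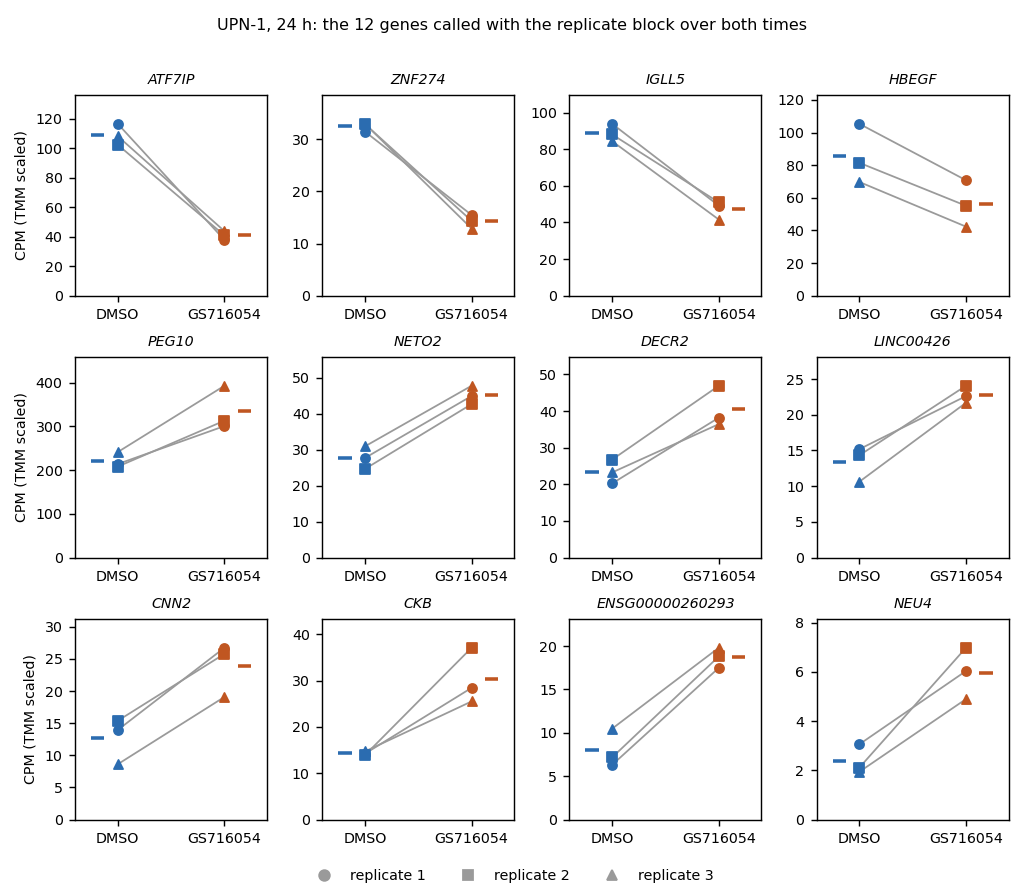
Level in each of the 6 UPN-1 libraries of 24 h (vertical axes from 0, CPM) for the 12 genes called with the block over both times. Grey lines join the DMSO (blue) and GS716054 (orange) library of the same replicate number and short bars are group means. Each of the 3 lines runs the same way in all 12 genes, and only HBEGF has groups that overlap.

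The wider set of 228 genes moved by small amounts. With the block within each time the median log2 fold change was 0.50 among the 140 higher genes and -0.42 among the 88 lower ones, and 14 of the higher and 3 of the lower genes changed at least 2-fold. The sign was the same in all 3 pairs for every one of the 228, which a fit blocked on these pairs favours. The groups did not overlap in 112 of the higher genes (7.33% of all genes tested were higher without overlap) and 80 of the lower ones (7.6%). Both counts follow in part from the selection of called genes and are no separate support. Leaving out 1 library, which removes its pair from the block, left 36 to 61 genes called, the fewest without GS716054 replicate 2. A core of 22 genes (16 higher, 6 lower) passed under all 12 alternatives to this fit: the 12 genes above except NEU4, and BAG2, BST2, EPOP, FADS2, IGKV1D-13, NTN3, RPP25, SCX, SOX11, CCDC69 and SYVN1. Fits without either library of the same pair gave nearly the same values, so the 12 alternatives are not all separate checks.

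The higher genes with the largest changes included NRBP2, a pseudokinase, at 1.43, 0.948 and 1.15 CPM in DMSO and 3.32, 3.54 and 4.32 with GS716054 (block within each time: log2 fold change 1.67, SE 0.331, adjusted p = 0.0119). TMEM121, a transmembrane protein gene, read 1.24, 1.37 and 0.789 CPM and 2.71, 4.75 and 2.85 (log2 fold change 1.60, SE 0.304, adjusted p = 0.00844). FGF9, a growth factor, read 0.955, 2.000 and 1.22 CPM and 2.21, 2.93 and 5.05 (log2 fold change 1.32, SE 0.325, adjusted p = 0.0432). All 3 are at a few CPM, where the standard errors are large. NTN3, which encodes a secreted netrin, read 4.01, 2.74 and 6.53 CPM and 8.54, 8.49 and 14.02 (log2 fold change 1.23, SE 0.179, adjusted p = 0.000846). SCX, the transcription factor scleraxis, read 5.25, 6.42 and 12.8 CPM and 12.8, 15.4 and 26.2 (log2 fold change 1.16, SE 0.182, adjusted p = 0.00169), with groups that overlapped although each pair rose. GNG4, a G-protein gamma subunit, stood at 1.66 ± 0.619 CPM and 3.87 ± 0.694 (log2 fold change 1.23, SE 0.272, adjusted p = 0.02398).

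Beside ATF7IP, ZNF274 and IGLL5, the lower genes with the largest changes included FAM50B, an imprinted gene, at 7.16, 6.11 and 6.03 CPM in DMSO and 3.02, 3.03 and 3.26 with GS716054 (block within each time: log2 fold change -1.04, SE 0.201, adjusted p = 0.01002), and a pair of zinc finger genes. ZNF141 read 14.8, 14.4 and 15.5 CPM and 9.55, 7.89 and 7.83 (log2 fold change -0.83, SE 0.143, adjusted p = 0.00366). The transcribed pseudogene ZNF826P read 6.01, 6.74 and 5.74 CPM and 3.02, 3.54 and 3.26 (log2 fold change -0.91, SE 0.214, adjusted p = 0.0357), and 99.8% of its exons coincide with another gene model on the same strand. PECAM1, an adhesion molecule of blood and endothelial cells, stood at 10.9 ± 1.94 CPM and 6.93 ± 1.98 (log2 fold change -0.68, SE 0.1705, adjusted p = 0.0485), OPTN, an autophagy receptor, at 8.42 ± 1.096 and 5.34 ± 0.811 (log2 fold change -0.66, SE 0.157, adjusted p = 0.0363), and UROD, an enzyme of haem synthesis, at 23.6 ± 2.18 and 15.4 ± 1.92 (log2 fold change -0.62, SE 0.122, adjusted p = 0.0107).

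The 3 KDM5 genes that were tested were not called with either form of the block, and KDM5D had no reads in the 6 libraries. KDM5A read 118, 97.6 and 118 CPM in DMSO and 106, 105 and 134 with GS716054, KDM5B 21.5, 22.3 and 23.3 and 23.5, 24.7 and 28.7, and KDM5C 133, 133 and 147 and 126, 135 and 143. Their adjusted p-values with the block within each time were 0.833, 0.413 and 0.885. Among 17 other genes that write or erase H3K4 methylation, KDM1A, the LSD1 demethylase, was called higher with the block within each time, at 333, 351 and 355 CPM in DMSO and 390.4, 412 and 437 with GS716054 (log2 fold change 0.25, SE 0.0574, adjusted p = 0.02697), and none was lower. Of 19 Polycomb and DNA methylation genes none was called (median log2 fold change 0.08).

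**Figure D3:**
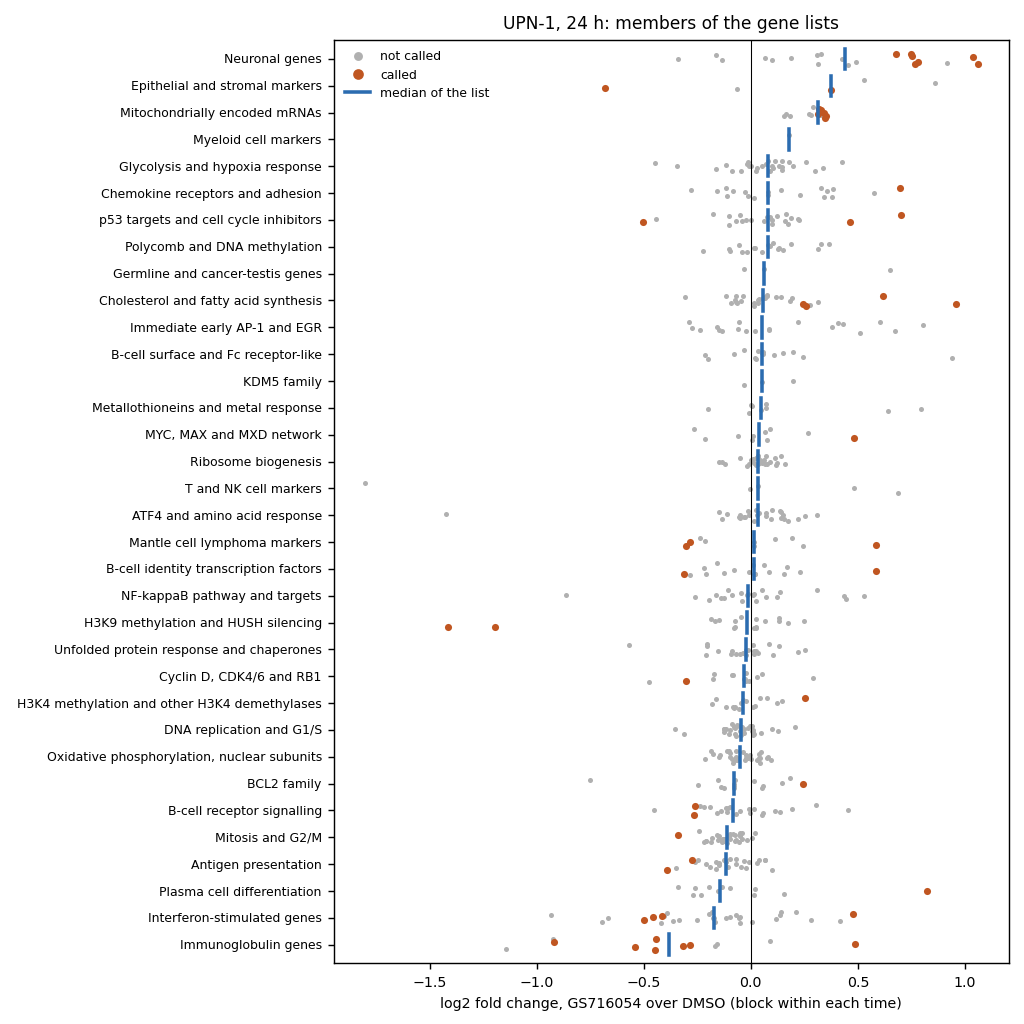
Members of 34 gene lists by their log2 fold change in UPN-1 at 24 h (horizontal axis, GS716054 over DMSO, block within each time). Each point is a tested gene, orange where called, and blue bars are list medians. The immunoglobulin list has the lowest median (-0.38, 7 of 12 members called) and the neuronal list the highest (0.44, 7 of 20 called). Lists and members were chosen with earlier results of these data known.

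Of the 34 gene lists, 15 had no called member with the block within each time, and the counts of the others are read against the 1.5% of all genes called in that fit. Of 12 immunoglobulin genes tested, 6 were called lower and 1 higher with the block within each time, and IGLL5 alone with the shared block, with a median log2 fold change of -0.38. IGHM, the heavy chain of IgM, read 3746, 3836 and 3509.9 CPM in DMSO and 3131, 3110.2 and 2859 with GS716054 (log2 fold change -0.29, SE 0.0588, adjusted p = 0.0159). IGKC, the kappa constant gene, read 1296, 1263 and 1063 and 1057, 999 and 856 (log2 fold change -0.31, SE 0.0676, adjusted p = 0.0201). Every treated library was under every DMSO library for both, by a narrow margin for IGKC. IGHD stood at 78.4 ± 9.69 CPM in DMSO and 57.7 ± 7.84 with GS716054 (log2 fold change -0.45, SE 0.0811, adjusted p = 0.00628) and IGHG3 at 102 ± 15.7 and 69.1 ± 5.71 (log2 fold change -0.54, SE 0.0859, adjusted p = 0.00183). The 1 member called higher was IGLC7, at 187, 159 and 98.3 CPM in DMSO and 257, 193 and 162 with GS716054 (log2 fold change 0.48, SE 0.0732, adjusted p = 0.00114), whose groups overlapped. Outside the list, the kappa variable gene IGKV1D-13 was higher (log2 fold change 1.17, SE 0.171, adjusted p = 0.000846) and IGKV1-12 was lower (log2 fold change -0.79, SE 0.186, adjusted p = 0.0355). Immunoglobulin genes are near copies of each other, so reads may be split or dropped between them, and their separate values are uncertain.

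Among 18 B-cell transcription factors SOX11 rose and POU2AF1 fell with the block within each time. SOX11 read 62.3, 78.7 and 88.96 CPM in DMSO and 99.9, 114 and 130.0 with GS716054 (log2 fold change 0.59, SE 0.0792, adjusted p = 0.000407), without overlap. POU2AF1, the coactivator OCA-B that supports immunoglobulin transcription, read 167, 167 and 144 and 136, 143 and 109 (log2 fold change -0.31, SE 0.0623, adjusted p = 0.0131). Of 24 B-cell receptor signalling genes 2 were lower: CD81, a tetraspanin of the cell surface, at 520.3 ± 6.36 CPM in DMSO and 434 ± 8.69 with the inhibitor, and INPP5D, the SHIP1 phosphatase, at 322 ± 18.6 and 269 ± 14.2 (log2 fold change -0.26 and -0.26, adjusted p = 0.0197 and 0.0212). BTK stood at 159 ± 6.86 CPM and 145 ± 2.79 (adjusted p = 0.326). None of 15 B-cell surface and Fc receptor-like genes was called, and of 12 plasma cell genes SDC1, which encodes CD138, was higher at 4.73 ± 0.909 CPM in DMSO and 8.35 ± 0.851 with GS716054 (log2 fold change 0.82, SE 0.188, adjusted p = 0.02905).

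CCND1, the gene the lymphoma's translocation acts on, was lower with the block within each time. It read 2394, 2450.3 and 2458 CPM in DMSO and 2082, 1989 and 1863 with GS716054 (log2 fold change -0.30, SE 0.0602, adjusted p = 0.0126), and the groups did not overlap. With the shared block it was not called (adjusted p = 0.619), and 10.4% of its exons lie opposite another gene. It was the one member called of 14 genes of the cyclin D, CDK4/6 and RB1 list. None of 35 DNA replication and G1/S genes was called (median log2 fold change -0.05). Of 35 mitosis genes AURKA was lower, at 90.2, 87.4 and 79.7 CPM in DMSO and 69.8, 73.1 and 60.6 with GS716054 (log2 fold change -0.34, SE 0.0731, adjusted p = 0.0197), 33 of the 35 were negative and the median was -0.11.

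Of 24 p53 targets and cell cycle inhibitors CDKN1A and TP53I11 were higher and RRM2B lower with the block within each time. CDKN1A, which encodes the CDK inhibitor p21, read 11.7, 9.79 and 8.11 CPM in DMSO and 20.5, 16.4 and 11.9 with GS716054 (log2 fold change 0.70, SE 0.131, adjusted p = 0.00742). TP53I11 stood at 42.01 ± 0.589 CPM and 57.9 ± 1.38 (log2 fold change 0.46, SE 0.0759, adjusted p = 0.00274) and RRM2B, a ribonucleotide reductase subunit, at 21.7 ± 0.4401 and 15.3 ± 1.08 (log2 fold change -0.50, SE 0.111, adjusted p = 0.0227). Among 15 BCL2 family genes the survival factor MCL1 was higher, at 305, 312 and 309 CPM in DMSO and 379, 350.2 and 368 with GS716054 (log2 fold change 0.24, SE 0.0569, adjusted p = 0.0336). BCL2 was low, at 2.63 ± 0.709 CPM and 2.47 ± 0.537, and was not called. MYC stood at 75.5 ± 21.5 CPM in DMSO and 72.03 ± 15.1 with GS716054 (adjusted p = 0.798). Of the 10 genes of the MYC, MAX and MXD network MGA, a repressor partner of MAX, was higher at 76.9 ± 6.86 CPM in DMSO and 108 ± 17.7 with GS716054 (log2 fold change 0.48, SE 0.08995, adjusted p = 0.00742).

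Interferon-stimulated genes split in direction. Of 31 tested, 3 were lower and 1 higher with the block within each time, 23 of 31 were negative and the median was -0.17. MX1, an antiviral GTPase, read 43.2, 36.7 and 32.1 CPM in DMSO and 30.6, 23.1 and 25.4 with GS716054 (log2 fold change -0.50, SE 0.0902, adjusted p = 0.00599), and TRIM22, an antiviral ubiquitin ligase, 53.5, 51.3 and 43.98 and 36.8, 37.8 and 33.6 (log2 fold change -0.45, SE 0.0792, adjusted p = 0.004201). PARP14 stood at 49.04 ± 3.72 CPM and 36.8 ± 3.09 (log2 fold change -0.42, SE 0.0867, adjusted p = 0.0174). BST2, the tetherin that holds viruses at the cell surface, went the other way, at 102, 105 and 88.2 CPM in DMSO and 149.6, 142 and 120.1 with GS716054 (log2 fold change 0.48, SE 0.0621, adjusted p = 0.000273). Of 27 antigen presentation genes HLA-B and the peptide transporter gene TAP1 were lower (log2 fold change -0.27, SE 0.0568, adjusted p = 0.0165 for HLA-B, and log2 fold change -0.39, SE 0.08000, adjusted p = 0.0158 for TAP1). HLA-B levels overlapped between the groups.

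Lipid genes included called members on 1 side only. Of 29 cholesterol and fatty acid synthesis genes 4 were higher and none lower with the block within each time, and all 4 act on fatty acids: the desaturases FADS1, FADS2 and SCD, and FASN, the fatty acid synthase. FADS2 read 23.1, 24.8 and 32.3 CPM in DMSO and 46.6, 49.3 and 59.6 with GS716054 (log2 fold change 0.96, SE 0.116, adjusted p = 0.0001200), a 1.94-fold difference without overlap. FADS1 read 36.9, 43.6 and 48.6 and 62.6, 59.3 and 75.8 (log2 fold change 0.62, SE 0.105, adjusted p = 0.00356). FASN and SCD changed little, with log2 fold changes of 0.26 and 0.24 (adjusted p = 0.0278 and 0.0442), and their groups overlapped. The list's median was 0.06.

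Genes best known from neurons had the highest median of the 34 lists. These lists were chosen with earlier results of these data known, so the rank is no separate support. Of 38 listed, 20 were tested, 13 others were at 0 in all 6 libraries, and 7 of the 20 were higher and none lower with the block within each time (median log2 fold change 0.44). CKB alone was called with the shared block. NPTX1, a neuronal pentraxin, read 38.5, 23.4 and 27.4 CPM in DMSO and 57.4, 43.2 and 48.4 with GS716054 (log2 fold change 0.75, SE 0.122, adjusted p = 0.00239). SYT11, a synaptotagmin of vesicle traffic, read 11.6, 18.5 and 15.7 and 20.9, 24.8 and 26.99 (log2 fold change 0.68, SE 0.116, adjusted p = 0.00356). CELSR3, a cadherin of axon guidance, stood at 9.07 ± 3.21 CPM and 15.6 ± 4.07 (log2 fold change 0.78, SE 0.149, adjusted p = 0.00844). TUBB2B, a tubulin, stood at 7.32 ± 2.03 and 12.3 ± 0.208 (log2 fold change 0.75, SE 0.159, adjusted p = 0.0197), and DPYSL5, an axon growth protein, at 5.605 ± 2.67 and 9.35 ± 2.07 (log2 fold change 0.76, SE 0.175, adjusted p = 0.0297). The seventh, PRPH, shares 71.5% of its exons with TROAP-AS1 on the other strand and is uncertain. A gene passed the filter on low counts with enough reads in as many libraries as 1 group holds. Those could be treated libraries alone, which can raise the median, and the listed genes at 0 do not enter it.

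All 13 mitochondrially encoded mRNAs had positive log2 fold changes, and 6 were called higher with the block within each time (MT-CO1, MT-CO2, MT-CO3, MT-CYB, MT-ND4 and MT-ND5), with a median of 0.31. MT-CO1 read 3829, 4215 and 3681 CPM in DMSO and 5367, 5002 and 4361 with GS716054 (log2 fold change 0.33, SE 0.0817, adjusted p = 0.0491). Their summed level was 12133 to 14789 CPM in DMSO and 14619.6 to 19334 with the inhibitor, and the mitochondrial share of each library is given above. None of 32 nuclear genes for respiratory chain subunits was called (median -0.05).

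Of the 5 epithelial and stromal markers tested VIM was higher and PECAM1 lower with the block within each time. VIM, the vimentin filament gene, read 191, 202 and 165 CPM in DMSO and 264, 236 and 223 with GS716054 (log2 fold change 0.38, SE 0.0816, adjusted p = 0.0214), and 24.6% of its exons lie opposite VIM-AS1, which was also higher. Vimentin made up most of that marker list, which summed to 178 to 219 CPM in DMSO and 232 to 276 with GS716054, while CDH1, COL3A1 and VWF were at 0. Of 19 chemokine receptor and adhesion genes ITGB2, an integrin of white blood cells, was higher (log2 fold change 0.70, SE 0.173, adjusted p = 0.0458).

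Several programmes had no called member with the block within each time. They were NF-kappaB genes (23 tested, median log2 fold change -0.01), ribosome biogenesis (29, 0.03), ATF4 and amino acid response (28, 0.03), the unfolded protein response (23, -0.02), glycolysis and hypoxia response (29, 0.08), metallothioneins (9, 0.05), and immediate early AP-1 and EGR genes (20, 0.05). Of 27 germline and cancer-testis genes with an entry, 18 had no reads in the 6 libraries and the 3 that were tested were not called. Among the 15248 genes, 2028 had an unadjusted p under 0.05 in that fit.

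At 72 h more genes were called in the same line, and most of the 24 h calls were found again. The 72 h libraries have DMSO libraries of their own, and with the block within each time 1139 genes were called (7.47%; 638 higher, 4.18%, and 501 lower, 3.29%). Of the 140 genes higher at 24 h, 100 were higher at 72 h, which is 71.4% of the 24 h calls and 15.7% of the 72 h calls. Of the 88 lower, 60 were lower at 72 h (68.2% and 11.98%). All 12 genes called with the shared block were called the same way at 72 h. Among the genes called at 24 h, 65 of 140 higher and 32 of 88 lower ones had a larger change at 72 h. The genes were chosen by their calls at 24 h, which favours large changes at that time, so these counts do not measure a change with time.

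The change with time itself was tested as the difference of the 72 h and the 24 h effect. With the block over both times 1 of 15248 genes passed (0.00656%), TROAP-AS1, which stood at 5.46 CPM in DMSO and 5.66 with GS716054 at 24 h and at 7.13 and 27.9 at 72 h. With the block within each time 7 passed (0.0459%), 6 of which were called at 24 h. LINC00426 rose further, with a log2 fold change of 0.79 at 24 h and 1.74 at 72 h (difference 0.95, adjusted p = 0.00695). CRIP2, a LIM domain protein gene, went from 0.84 to 2.44 (adjusted p = 0.00916), EEF1A2, a translation elongation factor of neurons and muscle, from 0.49 to 1.19 (adjusted p = 0.0198) and PRPH from 1.04 to 2.76 (adjusted p = 0.0463). NIBAN3, a B-cell gene, fell by more at 72 h, from -0.36 to -1.38 (adjusted p = 0.00121). NYNRIN turned from -0.51 to 0.31 (adjusted p = 0.0312) and was the 1 gene called in opposite directions at the 2 times. ATF7IP and ZNF274 had smaller decreases at 72 h (-0.97 and -0.77), but the differences between times did not pass (adjusted p = 0.306 and 0.448).

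**Figure D4:**
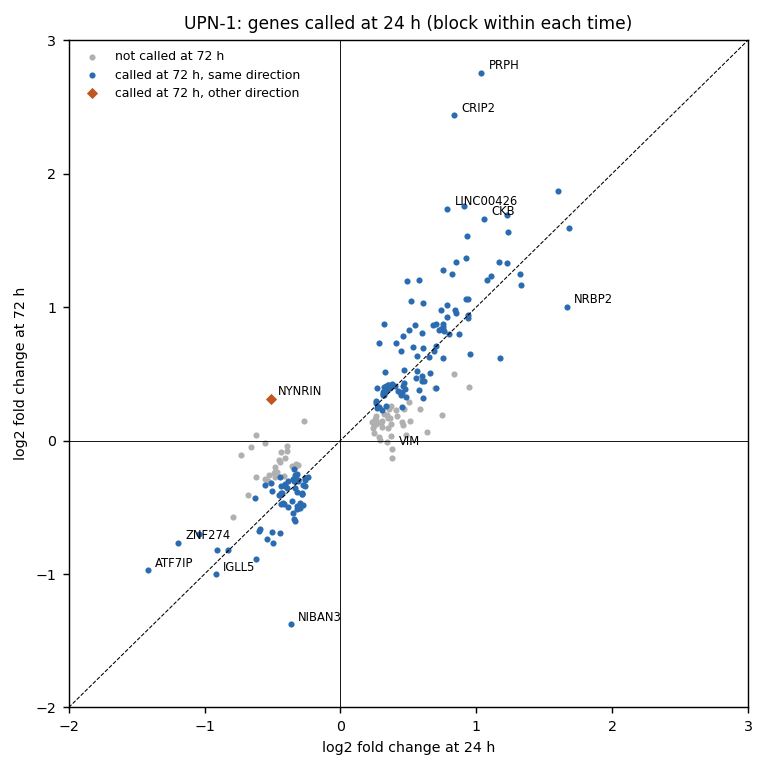
The 228 genes called at 24 h with the block within each time, by their log2 fold change at 24 h (horizontal axis) and at 72 h (vertical axis). Blue points were called in the same direction at 72 h, grey points were not called there, the orange diamond is NYNRIN, and the dashed line marks equal change. LINC00426, CRIP2 and PRPH lie well above the line, NIBAN3 well below it, and ATF7IP and ZNF274 on the side of the smaller change at 72 h.

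The other lines were read with their own DMSO libraries. With the block within each time, 15 genes were called in JEKO at 24 h (0.0899% of 16690; 0.0359% higher and 0.0539% lower) and 2373 in MINO (15.8% of 15028). With the block over both times the counts were 8 (0.0479%) and 994 (6.61%). Of the 140 genes higher in UPN-1, 133 were tested in MINO, where 27 were called higher and 20 lower. Of the 88 lower in UPN-1, 77 were tested in MINO, where 12 were called lower and 6 higher. Over all genes tested in MINO, 8.43% were called higher and 7.36% lower. The genes called the same way in MINO were 19.3% of the 140 and 13.6% of the 88, shares that also count genes not tested in MINO. JEKO shared 1 higher gene (LCK) and 4 lower genes (CCDC69, COA7, IGHG3 and IGLL5) with UPN-1.

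LCK, a tyrosine kinase of lymphocytes, was called higher in all 3 lines, and CCDC69, a coiled-coil protein linked to the mitotic spindle, and COA7, an assembly factor of cytochrome c oxidase, were called lower in all 3. LCK read 16.7, 13.5 and 12.7 CPM in DMSO and 19.1, 20.6 and 21.4 with GS716054 in UPN-1 (log2 fold change 0.52, SE 0.128, adjusted p = 0.0438), and its log2 fold change was 1.19 in JEKO and 1.41 in MINO. CCDC69 read 212, 199.8 and 225 and 143, 125 and 153 in UPN-1 (log2 fold change -0.60, SE 0.0686, adjusted p = 6.26e-05), against -1.10 in JEKO and -1.37 in MINO. COA7 read 44.6, 47.5 and 46.2 and 34.3, 37.4 and 33.9 (log2 fold change -0.39, SE 0.0946, adjusted p = 0.0411), against -1.34 and -0.84. The change was smallest in size in UPN-1 for all 3 genes. Few genes were called in JEKO, so mainly genes with large changes there could enter this set, and the order is partly set by that choice. The difference of UPN-1 from the mean of the other lines passed for CCDC69 (adjusted p = 0.0148, block within each line and time) but not for LCK or COA7 (adjusted p = 0.0522 and 0.0859).

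No gene passed the test of the difference between the UPN-1 effect and the mean effect of JEKO and MINO at 24 h when the block was set within each line (edgeR, 0 of 17980 genes, 0%; 1060 at an unadjusted p under 0.05). With the block within each line and time 69 passed (0.384%), 16 of them among the 228. ATF7IP fell by more in UPN-1 (-1.42) than in JEKO (-0.19) and MINO (-1.07) on average (difference -0.80, adjusted p = 0.0413). PEG10 was higher in UPN-1 (0.60) and lower in MINO (-0.63; adjusted p of the difference 0.0305), and DECR2 rose in UPN-1 while its log2 fold changes were -0.27 in JEKO and 0.16 in MINO (adjusted p of the difference 0.0244). For ZNF274, CNN2, CKB and LINC00426 the difference did not pass (adjusted p = 0.356, 0.608, 0.662 and 0.709). IGLL5 was called lower in JEKO too (-1.40) and was not tested in MINO, where its counts were too low.

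**Figure D5:**
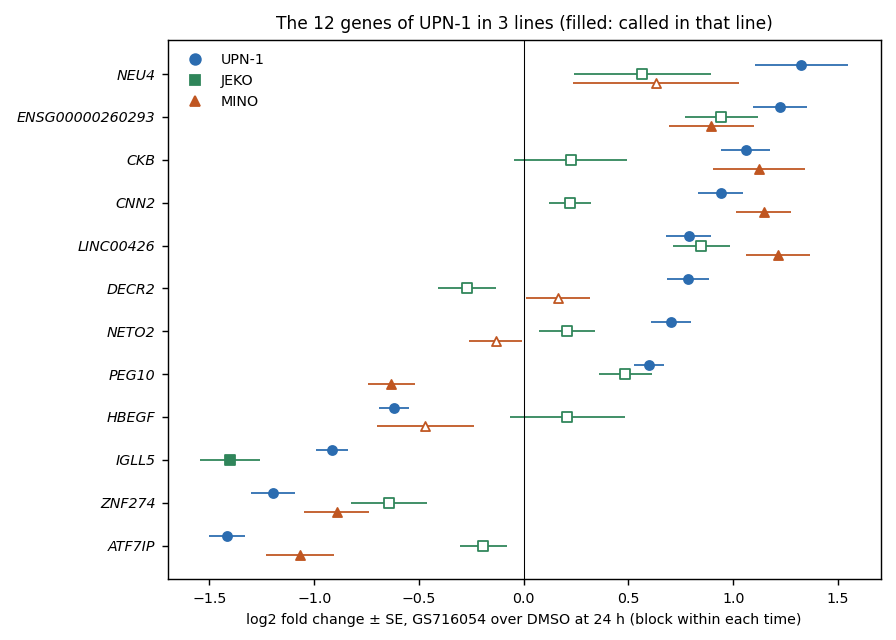
Log2 fold change with its standard error at 24 h (horizontal axis, GS716054 over DMSO, block within each time) of the 12 genes in UPN-1 (blue circles), JEKO (green squares) and MINO (orange triangles), with filled symbols where the gene was called in that line. ATF7IP and ZNF274 are filled in UPN-1 and MINO, and PEG10 is called in opposite directions in UPN-1 and MINO. IGLL5 has no MINO value.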

How the data were processed

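Total RNA of 36 libraries was sequenced (3 lines, 2 agents, 2 times, 3 replicates each), and the 12 UPN-1 libraries carry the results. Per the submitters' processing notes, HISAT2 2.2.1 and HTSeq 0.13.5 were used with GRCh38. The options, strand setting and annotation release are not given in the sources used here. The authors deposited raw read counts per Ensembl gene, 1 file per library. Of 58302 gene IDs, 57532 were named from GENCODE 44, which also gave positions and exon overlaps. HTSeq's 5 summary lines (43.3% to 44.3% of reads had no feature) were left out.

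Counts were tested with edgeR 4.0.16 in R 4.3.3 (filterByExpr, minimum count 10 and total 15; TMM; quasi-likelihood test; Benjamini-Hochberg over all genes). The design had 4 groups and the replicate number as 1 block over both times (6 residual degrees of freedom). The block within each time (4) was planned only as an alternative to it for the 24 h effect. Its use for the 72 h effect, the other lines and the differences between times and lines was added after the data were seen. Every same-number correlation at 24 h was over 0.1, the limit set for taking the numbers as pairs, but not all were across times. The correlations were low, so the pairing rests on the labels' numbers and is not established by this check. The calls of both fits were known when this was checked. Up to 12 called genes per direction were named by size of change, if all 3 pairs had 1 sign and the mean log2 CPM reached 1. Up to 4 genes were named per list by smallest adjusted p. Both rules were applied again to the fit with the block within each time after its values were seen. Members and lists were chosen with earlier results of these data known. DESeq2 1.42.0, other scalings, filters and left-out libraries were alternatives, and the edgeR steps were tested on simulated counts. Replicates of a group differed beyond counting noise (chi-square per degree of freedom 3.20 to 12.2), so none was merged.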

Additional observations from a re-analysis of the deposited data

Results flagged for a closer look

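In UPN-1, the effect of GS716054 on TROAP-AS1 differed between the times, with a log2 effect at 72 h minus that at 24 h of 1.903 with the block over both times (edgeR adjusted p = 0.0332) and 1.906 with the block within each time. TROAP-AS1 lies opposite PRPH, which covers 60.7% of its exons, and the 2 cannot be separated without strand. With the block within each time, a fit whose use for this difference was chosen after the data were seen, the effects of NIBAN3 (-1.01), CRIP2 (1.600) and LINC00426 (0.95) differed as well.

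The effect at 24 h differed between UPN-1 and the mean of JEKO and MINO for 14 named genes when the block was set within each line and time, a fit also added after seeing the data, and for none with the block within each line. The UPN-1 effect was above the mean of the other lines for RPP25 (difference in log2 effect 1.05), DECR2 (0.83), FADS2 (0.82), CEP41 (0.76) and PPIF (0.73). So it was for MYC (0.699), PEG10 (0.66), CCDC69 (0.62, where the decrease was smaller) and FASN (0.57). The UPN-1 effect was below that mean for TP53INP1 (-1.704), DYRK1B (-1.34), OPTN (-0.94), ATF7IP (-0.800) and BTG2 (-0.78). For MYC the log2 effect was -0.06 in UPN-1, 0.02 in JEKO and -1.55 in MINO. PPIF, FASN, PEG10 and RPP25 were called higher in UPN-1 and lower in MINO, and OPTN lower in UPN-1 and higher in MINO.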

How the results depend on the processing

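The number of calls differed most between forms of the block and sets of libraries. Against 12 genes with the block over both times, 4 were called with no replicate block, 228 with the replicate block within each time, 975 with only the 6 libraries of 24 h, 6 with all 36 libraries, 20 with upper quartile scaling, 98 with no low-count filter, 53 by DESeq2 and 4 to 7 without 1 library. The split was 8 higher and 4 lower with TMM and 6 and 5 on total gene counts. With the block within each time it was 140 and 88 with TMM, 169 and 75 with upper quartile scaling and 103 and 91 on total gene counts. Against 228 with the block within each time, 451 were called with no low-count filter, 143 by DESeq2 and 36 to 61 without 1 library. The test of the difference between times gave 1, 0 with no block and 7 with the block within each time, and that between lines gave 0 and 69. Without 1 library, genes that were not called changed sign: BCL2 ranged from -0.253 to 0.148, KDM5A from -0.0570 to 0.189, KDM5B from -0.140 to 0.490, KDM5C from -0.0728 to 0.00866 and MYC from -0.218 to 0.109 (log2 fold change, block over both times). No called gene that is named changed sign. Single genes gave 582 values on the same side of the threshold and 318 that lost the call over the alternatives to the block within each time. Other scalings moved the median of all genes to between -0.012 and 0.016. The causes of these shifts were not tested. With 3 libraries a group and 9720919 to 14125495 gene reads, changes in genes of a few CPM were the least precise.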

Other observations

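Genes named here were chosen after their values were seen, and all values come from the fit with the block within each time. The 140 higher genes included EPOP, ZMYND8 and RCOR2, which were picked singly, and the chromatin lists given above had few or no called members. EPOP, a Polycomb partner, read 27.1, 30.2 and 30.7 CPM in DMSO and 39.6, 49.96 and 48.8 with GS716054 (log2 fold change 0.65, SE 0.0822, adjusted p = 0.0001996). ZMYND8, a chromatin reader that works with KDM5 enzymes, read 79.1, 88.3 and 72.5 and 105, 122 and 130.2 (log2 fold change 0.58, SE 0.08703, adjusted p = 0.00113), and RCOR2, a partner of the demethylase LSD1, 13.4, 12.2 and 14.7 and 18.7, 20.4 and 20.5 (log2 fold change 0.56, SE 0.121, adjusted p = 0.0212). DEAF1 stood at 29.9 ± 4.67 CPM and 44.3 ± 4.596, LCOR at 70.3 ± 12.1 and 85.7 ± 12.6, and ZMYM2 at 115 ± 10.4 and 138 ± 10.1. PPAT and PAICS, neighbouring enzymes of purine synthesis, were higher by log2 fold changes of 0.35 and 0.23, and the RNA-binding proteins IGF2BP1 and IGF2BP3 by 0.25 and 0.26.

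Of the 88 lower genes, TCL1A, which B cells are known to express, read 984, 952 and 924 CPM in DMSO and 866, 734 and 729 with GS716054 (log2 fold change -0.30, SE 0.0654, adjusted p = 0.0216), LAPTM5 494, 501 and 523 and 416, 398 and 394 (log2 fold change -0.33, SE 0.0616, adjusted p = 0.00742), and PLD4 183, 181 and 191 and 152, 137 and 157 (log2 fold change -0.32, SE 0.0723, adjusted p = 0.0277). MME, which encodes CD10, read 37.4, 27.3 and 14.5 and 21.6, 19.6 and 10.4 (log2 fold change -0.59, SE 0.106, adjusted p = 0.00516), with overlapping groups but a lower treated library in each pair. SYVN1, the ubiquitin ligase of protein quality control in the endoplasmic reticulum, read 137, 142 and 142 CPM and 101, 107 and 102 (log2 fold change -0.44, SE 0.0602, adjusted p = 0.000413).

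Genes whose symbol is ZNF and a number, the class of ZNF274, numbered 499 tested, of which 6 were lower and 2 higher (median log2 fold change -0.04). Over all genes 0.577% were lower and 0.918% higher, 1.5% in either direction, and the class was picked after its values were seen. The 249 on chromosome 19 had 5 lower and none higher (median -0.08, against -0.00 over all genes), namely ZNF274, ZNF561, ZNF562, ZNF614 and ZNF826P. ZNF561 stood at 27.3 ± 2.76 CPM in DMSO and 18.8 ± 1.43 with GS716054 (log2 fold change -0.53, SE 0.112, adjusted p = 0.0192) and ZNF562 at 32.6 ± 2.07 and 22.1 ± 1.27 (log2 fold change -0.55, SE 0.101, adjusted p = 0.00661), of whose exons 50.7% lie opposite another gene.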
